A study of Mus musculus with 5 samples.

Results

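The core adipogenic transcription factors are the regulators that turn a fibroblast-like precursor into a fat cell and keep it one. They comprised 10 genes here, Pparg, Cebpa, Cebpb, Cebpd, Cebpg, Klf4, Klf5, Klf15, Ebf1 and Ebf2, chosen by name. Each was measured by exactly 1 of the 22206 probe sets on the array, a probe set being the group of short probes that reads 1 gene, so no choice between probe sets was needed. All 10 were found.

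RNA came from 3T3-L1 cells, a clonal mouse fibroblast line that becomes adipocytes when given hormones. All cells spent 4 days in basal medium before a 4-day hormone mixture of insulin (5 µg/mL), dexamethasone (1 µM) and the phosphodiesterase inhibitor IBMX (0.5 mM). They then had 2 days with insulin as the only hormone and 1 last day in basal medium, followed by 72 hours in RPMI-1640 with 10% fetal bovine serum. On the 3 exposed arrays the adipocytes shared that medium with MM.1S cells, a human multiple myeloma line, across a 0.4 µm membrane that lets secreted molecules pass and keeps the cells apart. On the 2 control arrays they were in the medium alone. The labels call the arrays replicates without naming separate cultures, so p-values reflect only how these samples vary, which may be technical variation.

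In the textbook order of events, the hormone mixture first induces the C/EBP proteins beta and delta, which bind DNA as leucine zipper dimers. These, together with Krüppel-like and EBF factors, switch on Pparg, a nuclear receptor, and Cebpa. PPARgamma and C/EBPalpha then maintain each other and the genes of fat storage, so in a mature adipocyte they are the factors that hold cell identity.

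No member was called different between exposed and control arrays. At a limma adjusted p under 0.05, 0 of 10 members passed, as did 0% of all probe sets, and the members' adjusted p-values lay between 0.93 and 0.996. Of the members 5 had a higher and 5 a lower mean on exposed arrays, where 49.9% of all probe sets were higher and 50.1% lower. The median difference of the 10, exposed minus control on the log2 scale, was 0.0029, and that of all probe sets was -0.0004. A 2-fold difference in either direction lay outside the 95% interval for 9 of the 10, against 92.9% of all probe sets. Klf5, a zinc finger factor that activates Pparg, was the exception and is described below. At an unadjusted p under 0.05 there was 1 member, Klf5, among the 10, on the higher side, and 3.49% of all probe sets. Counting the higher side alone, that was 1.82% of all probe sets.

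**Figure D1:**
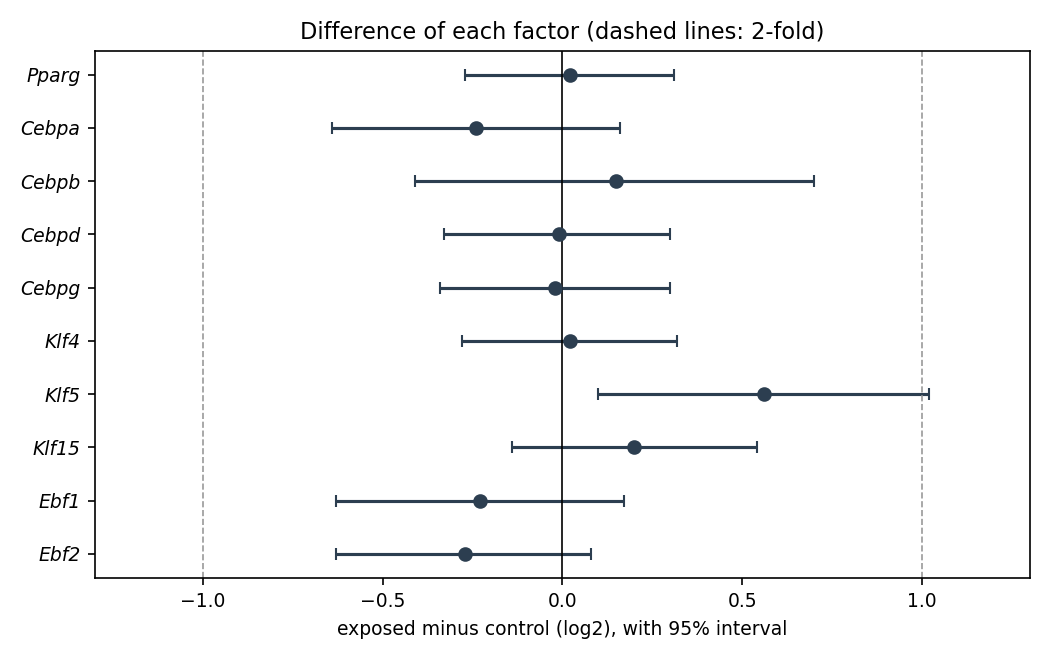
Difference of each factor between 3 exposed and 2 control arrays (x axis, log2 units), with points for the fitted difference and bars for limma's 95% interval. The dashed lines mark a 2-fold difference, and the interval of Klf5 (0.10 to 1.02) reaches past the upper one while the other 9 stay between the lines.

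The exposed and control arrays did not overlap for 5 of the 10 members. On all exposed arrays Klf5 and Klf15 read above both controls, and Cebpa, Ebf1 and Ebf2 read below them. Among all probe sets 17.3% did not overlap in either direction, 8.5% higher and 8.84% lower on exposed arrays. The members were chosen with earlier results of these data known, so that share of the members carries no test.

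The cells carried the adipocyte transcripts Fabp4 and Adipoq at high levels. Fabp4, a lipid-binding protein gene of adipocytes, lay between 12.34 and 12.41 (log2) over the 5 arrays and Adipoq, the adiponectin gene, between 11.39 and 11.73. Their mean levels were at the 99.8 and 99.4 percentiles of all probe sets. Both are among 28 measured target genes of PPARgamma and C/EBPalpha, not all of which were bright. Mean levels of those 28 ran from 2.52 (Ucp1) to 12.37 (Fabp4), with a median of 8.20. Lep, the leptin gene, lay at 3.17. Among 13 measured preadipocyte markers the mean level was above the all-probe-set median of 4.81 for 9 and below it for 4 (Dpp4, Cd34, Cd24a and Gata2), from 2.91 for Dpp4 to 12.32 for Vim. One of the bright ones, Dlk1, a surface protein of adipocyte precursors, read 10.44, 10.34 and 10.23 on exposed and 10.68 and 10.55 on control arrays, at the 98.1 percentile. In a bulk sample fewer cells of a type and less RNA per cell cannot be told apart. The defining markers of other cells were dimmer, Ptprc of blood cells at a mean of 4.22 and Pecam1 of endothelium at 3.10.

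**Figure D2:**
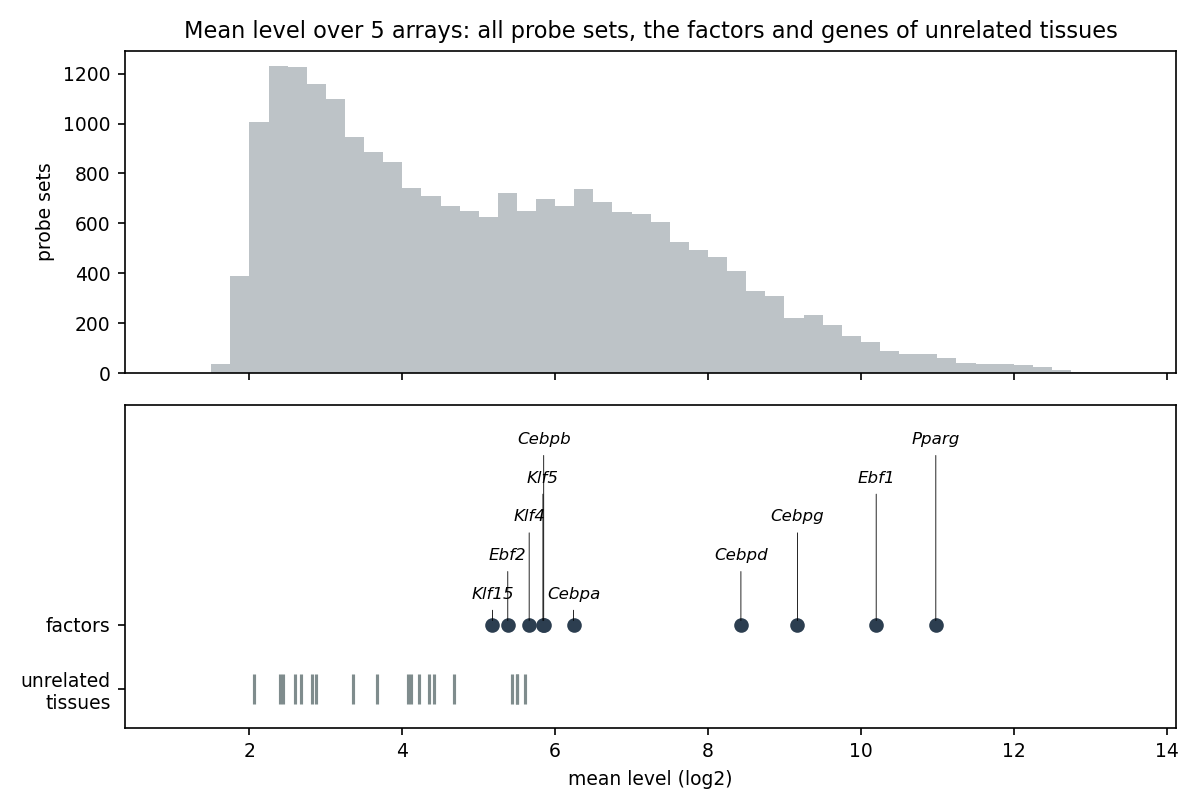
Mean level over the 5 arrays (x axis, log2) as a histogram of all 22206 probe sets (upper panel, y axis: number of probe sets) and as points for the 10 factors and ticks for 19 genes of unrelated tissues (lower panel). Pparg, Ebf1, Cebpg and Cebpd lie far above every tick, and Klf15 and Ebf2 lie below the highest tick at 5.60.

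By probe set level the members divided into a bright set of 4 and a lower set of 6. Pparg, Ebf1, Cebpg and Cebpd lay at the 98.9, 97.7, 94.4 and 90.3 percentiles of mean level. The other 6 lay between the 54.3 percentile (Klf15) and the 67.2 percentile (Cebpa). Probes differ in how well they bind, so these ranks describe the signal of each probe set and do not order the RNA amounts of different genes. The table carries no detection calls. As a yardstick, 19 measured genes of unrelated tissues, such as the insulin gene Ins2 and the albumin gene Alb, had mean levels from 2.06 to 5.60 with a median of 4.08. Means of 8 members were above all 19, but only 4 of them by more than 1 log2 unit, while Ebf2 (5.38) and Klf15 (5.18) were within their range. RMA, the method behind these values, compresses differences of dim probe sets, so the intervals of the lower 6 limit the difference in array signal and less so that in RNA.

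Pparg encodes PPARgamma, the receptor without which fat cells do not form. Its levels were 11.05, 10.97 and 10.95 on exposed and 10.99 and 10.96 on control arrays. The groups overlapped and the whole range over the 5 arrays was 0.10 log2 units. The difference was 0.02, with a 95% interval from -0.27 to 0.31, which corresponds to 0.83- to 1.24-fold. Its residual SD of 0.04 was at the 3.4 percentile of all probe sets, so Pparg was both among the brightest and among the steadiest signals on the array. Of other bright genes, Fabp4 and Vim had a residual SD at the 2.25 and 2.49 percentiles and Adipoq at the 31.2 percentile. Probe sets of like level were not compared.

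Cebpa encodes C/EBPalpha, which sustains Pparg and confers insulin sensitivity on the cell. It read 6.24, 6.31 and 5.88 on exposed arrays and 6.40 and 6.37 on control arrays. All exposed values were lower than both controls, with exposed array 3 the farthest. The means were 6.14 ± 0.23 (SD, n = 3) and 6.38 ± 0.02 (SD, n = 2), and the difference of -0.24 had an interval from -0.64 to 0.16 and did not pass (limma adjusted p 0.93). Without exposed array 3 the difference was -0.11 (-0.42 to 0.20).

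RefSeq windows before the start sites of these genes show how differently they are built. Windows of 250 bases were found for 7 members, 10 windows in all, and not for Cebpd, Klf5 and Ebf2. Pparg has 3 annotated starts in that table, and its probe set gives a single value for the gene. The sources used here do not say which transcripts the probes read. The 3 windows printed are the first and the third Pparg start and the Cebpa start, since both genes are the endpoints of the cascade and the third Pparg window is the member window with most C/EBP matches. Coordinates are of build GRCm38.p6, plus strand, at chr6:115360894-115361143, chr6:115421816-115422065 and chr7:35119043-35119292, each ending at the base before the start. Capitals mark matches, on either strand, to 3 short motifs of the members' own families: TTNCNNAA for C/EBP, CCNCNCCC for KLF and CCCNNGGG for EBF, where matches of 1 motif or of different motifs may overlap.
Pparg start 1: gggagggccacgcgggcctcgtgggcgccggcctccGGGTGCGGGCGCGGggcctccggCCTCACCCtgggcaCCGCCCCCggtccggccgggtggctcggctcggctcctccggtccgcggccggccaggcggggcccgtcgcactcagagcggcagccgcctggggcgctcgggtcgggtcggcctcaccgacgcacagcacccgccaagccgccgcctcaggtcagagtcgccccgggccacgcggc
Pparg start 3: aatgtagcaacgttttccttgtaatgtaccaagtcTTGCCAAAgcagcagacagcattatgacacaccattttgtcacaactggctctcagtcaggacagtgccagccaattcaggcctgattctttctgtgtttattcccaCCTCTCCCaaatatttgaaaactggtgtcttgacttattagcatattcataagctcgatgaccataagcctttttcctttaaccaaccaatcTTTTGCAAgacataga
Cebpa start: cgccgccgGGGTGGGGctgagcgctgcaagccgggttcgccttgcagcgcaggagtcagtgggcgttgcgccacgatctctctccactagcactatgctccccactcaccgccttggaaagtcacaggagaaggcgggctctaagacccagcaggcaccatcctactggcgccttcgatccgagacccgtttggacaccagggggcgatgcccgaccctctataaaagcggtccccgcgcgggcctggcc

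The windows differed in base composition and in matches. The first Pparg window was 82.4% G or C, with 4 KLF matches and 0 C/EBP matches. The window of the third start was 40.8% G or C and held 2 C/EBP matches, TTGCCAAA with its first base 215 and TTTTGCAA with its first base 16 before the start, and 1 KLF match. The Cebpa window was 66.4% G or C with 1 KLF match and 0 C/EBP matches. Over all 10 member windows a C/EBP match was found in 2 (at the third start of Pparg and the first of Ebf1), a KLF match in 10 and an EBF match in 1 (Cebpb). Of all 32851 windows in the table, 36.8% held a C/EBP match, 45.9% a KLF match and 11.8% an EBF match. The member windows ranged from 40% to 82.4% G or C, with a median of 52.4% over all windows, and the part of base composition in these counts was not tested. A match is a description of letters, not a binding site, and a window without a match may still hold a site that the short motif does not cover.

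**Figure D3:**
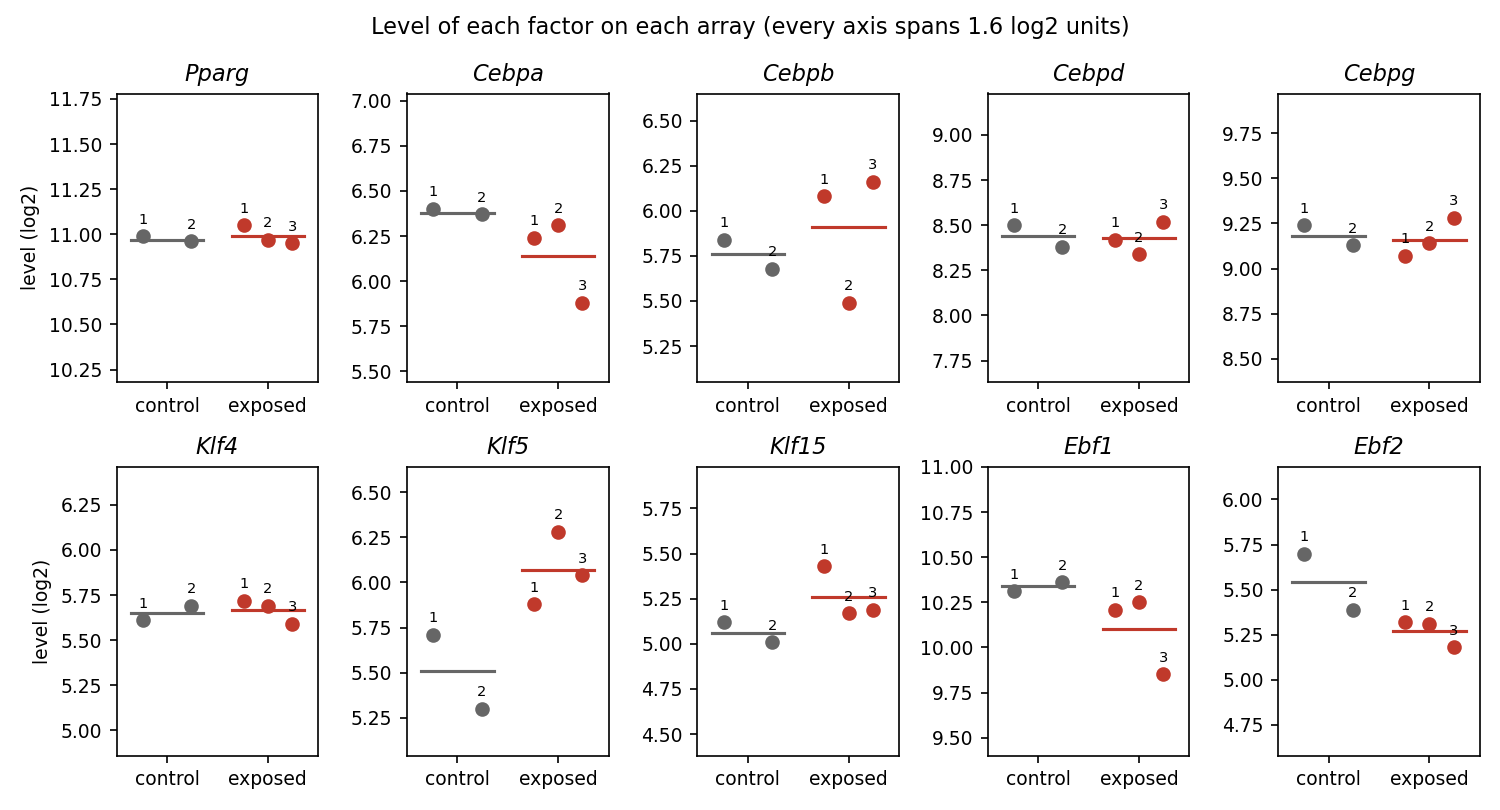
Level of each factor (y axis, log2) on the 2 control arrays (grey) and 3 exposed arrays (red), with the replicate number at each point and a bar at the group mean. Each panel spans 1.6 log2 units, so the flat panels of Pparg and Klf4 and the spread panels of Cebpb and Klf5 can be compared directly.

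The early C/EBP genes were not separated by exposure. Cebpb, whose protein is made within hours of induction, read 6.08, 5.49 and 6.16 on exposed arrays and 5.84 and 5.68 on control arrays. Exposed array 2 was the lowest and exposed array 3 the highest of all 5, so the controls lay inside the exposed range of 0.67. Cebpb was the most variable member, with a residual SD of 0.31 at the 80.5 percentile of all probe sets. Its difference of 0.15 had the widest interval of the 10, -0.41 to 0.70 (limma adjusted p 0.947), and it ran from 0.022 without exposed array 3 to 0.36 without exposed array 2. Cebpd, its early companion, read 8.42, 8.34 and 8.52 on exposed and 8.50 and 8.38 on control arrays. Those groups overlapped, with a difference of -0.01 (-0.33 to 0.30).

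Cebpg encodes a C/EBP protein that forms dimers with its relatives and lacks a strong activation domain of its own. Its levels were 9.07, 9.14 and 9.28 on exposed and 9.24 and 9.13 on control arrays. The groups overlapped, and the difference was -0.02 (-0.34 to 0.30). Cebpd and Cebpg both had a small spread, with residual SDs of 0.09 and 0.10. As folds, the interval of Cebpd ran from 0.80 to 1.23 and that of Cebpg from 0.79 to 1.23.

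Among the Krüppel-like factors, Klf5 showed the widest difference of all 10 members. KLF5 is induced by C/EBPbeta and C/EBPdelta and then activates Pparg. Its levels were 5.88, 6.28 and 6.04 on exposed arrays and 5.71 and 5.30 on control arrays. Every exposed array read above both controls, and control array 2 was the lowest of the 5, 0.41 under control array 1. The means were 6.07 ± 0.20 (SD, n = 3) and 5.51 ± 0.29 (SD, n = 2). The difference of 0.56, or 1.47-fold, had an interval of 0.10 to 1.02 and did not pass over all probe sets (limma adjusted p 0.93; unadjusted p 0.0239). Klf5 was the only member whose difference exceeded the widest range within either group, 0.41. The share of all probe sets that do so was not counted, so this does not set Klf5 apart.

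The size of the Klf5 difference rested on single arrays. Without control array 2 it was 0.36 (-0.23 to 0.94) and without control array 1 it was 0.76 (0.18 to 1.35), each with 1 control array left and the spread taken from the exposed arrays. Leaving out exposed arrays 1, 2 and 3 in turn gave 0.65, 0.45 and 0.58. Its unadjusted p stayed under 0.05 without exposed array 1 or control array 1 and was above it without any one of the other 3. Its sign was the same in all 14 alternative settings, some of which leave the difference unchanged by construction.

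Klf4 and Klf15 stand at opposite ends of the cascade. Klf4, which acts early on Cebpb, read 5.72, 5.69 and 5.59 on exposed and 5.61 and 5.69 on control arrays, a range of 0.13 with overlapping groups. Its difference was 0.02 (-0.28 to 0.32). Klf15, which rises late in differentiation and activates the glucose transporter gene Slc2a4, read 5.43, 5.17 and 5.19 on exposed and 5.12 and 5.01 on control arrays. All exposed values were above both controls, although exposed arrays 2 and 3 exceeded control array 1 only narrowly. The difference was 0.20 (-0.14 to 0.54; limma adjusted p 0.93), and without exposed array 1, the highest, it was 0.12. Slc2a4 itself read 5.92, 5.86 and 5.55 on exposed and 5.83 and 5.90 on control arrays, with overlap.

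Both EBF genes lay lower on exposed arrays without passing the test. Ebf1, which promotes adipogenesis upstream of Pparg and Cebpa, read 10.21, 10.25 and 9.85 on exposed and 10.31 and 10.36 on control arrays. Exposed array 3 was well below the rest, and the other exposed values were just under the controls. The difference was -0.23 (-0.63 to 0.17; limma adjusted p 0.93) with all arrays and -0.10 (-0.41 to 0.20) without exposed array 3. Ebf2, known for marking committed precursors and for brown and beige fat identity, read 5.32, 5.31 and 5.18 on exposed and 5.70 and 5.39 on control arrays. Its groups did not overlap, yet control array 1 stood apart from the others. The difference was -0.27 (-0.63 to 0.08; limma adjusted p 0.93). Without control array 1 it was -0.12, and without control array 2 it was -0.43 (-0.80 to -0.05).

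**Figure D4:**
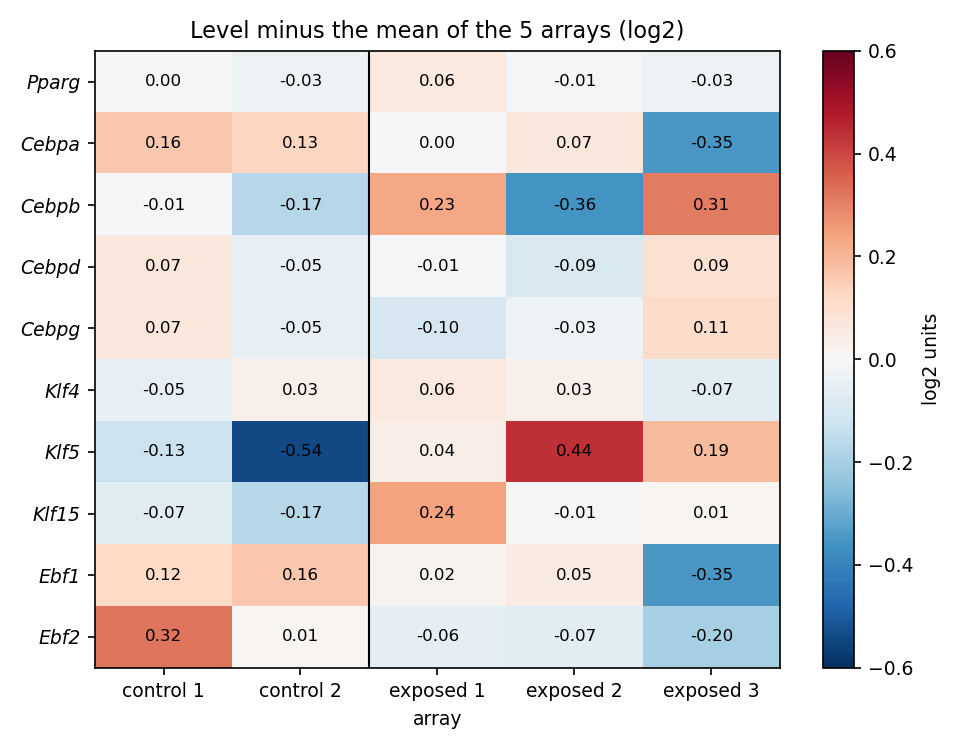
Level of each factor on each array minus its mean over the 5 arrays (colour and printed value, log2 units), control arrays to the left of the line. The column of exposed array 3 holds the lowest value of Cebpa and of Ebf1 (each -0.35) and the highest of Cebpb (0.31), and the widest row is Klf5, from -0.54 to 0.44.

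Most members varied less between arrays of a group than the median probe set. The residual SD of the fit was under the all-probe-set median of 0.19 for 8 of the 10, from 0.04 for Pparg and 0.06 for Klf4 (7.15 percentile) to 0.19 for Cebpa (47.9 percentile). Cebpb and Klf5 (0.23, 62.5 percentile) were the 2 above it. All 10 members had a mean level above the median of all probe sets, and their spread was not compared with that of probe sets of like level. Ranked within each array, Pparg stayed between the 98.8 and 98.9 percentiles and Cebpg between 94.1 and 94.8. Klf5 moved most, from the 55.8 percentile on control array 2 to 67.3 on exposed array 2, and Cebpb moved from 58 to 66.3. A rank within an array does not depend on how that array was scaled.

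Exposed array 3 read lowest for 5 of the 10 members, Pparg, Cebpa, Klf4, Ebf1 and Ebf2, where it was lowest for 22.2% of all probe sets. It read highest for Cebpb, Cebpd and Cebpg, and for 5431 of all 22206 probe sets. Cebpa and Ebf1 each lay 0.44 below the mean of the other 4 arrays there, and Cebpb lay 0.39 above. Exposed array 3 also had the most probe sets more than 1 log2 unit from the median of the other arrays, 122, against 30 to 94 for the other 4. The part of that array's overall deviation in the values of Cebpa and Ebf1 was not tested.

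Genes that work with or around these factors were likewise not called. Over all 165 measured genes of the 11 lists, the members included, limma called 0 and 4 had an unadjusted p under 0.05: Klf5, Ncoa2, Retn and Etv1. That is 2.42% of the listed genes, beside 3.49% of all probe sets. The members and lists were chosen with earlier results of these data known, so the share of listed genes carries no test. Of 18 measured PPARgamma partners and coregulators 4 were higher and 14 lower in mean, with a median of -0.085 and 1 at an unadjusted p under 0.05. With 1 array left out that median ran from -0.18 without control array 2 to -0.037 without control array 1. Ncoa2, a coactivator of nuclear receptors, read 8.30, 8.07 and 8.15 on exposed and 8.57 and 8.50 on control arrays, a difference of -0.36 (-0.68 to -0.04; limma adjusted p 0.93). Nrip1, a corepressor that restrains energy expenditure in fat, differed by -0.54 (-1.10 to 0.02). The RXR genes, which encode dimer partners of PPARgamma, were not among the 2 widest of the list and are given for their role. Rxra differed by -0.12, Rxrb by -0.26 (-0.60 to 0.09) and Rxrg by 0.17. All exposed arrays of Rxrb read below both controls.

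Other factors listed as promoting adipogenesis were split 8 higher and 10 lower (18 measured, median -0.054), and 10 higher and 8 lower without control array 2 (median 0.024). The widest were Nr1h3, which encodes the sterol receptor LXRalpha, at -0.31 and Creb5 at 0.31. Factors listed as opposing adipogenesis were 4 higher and 14 lower (18 measured, median -0.098). Exposed array 1 read lowest for 10 of these 18, where it was lowest for 24.6% of all probe sets, and without it the list was 9 higher and 9 lower with a median of 0.0029. The list's mean level was 6.54 on exposed array 1 and 6.70 to 6.74 on the other 4, and without control array 2 the split was 8 higher and 10 lower. Egr1, an immediate early gene, differed by -0.38, and its exposed array 1 read 7.82 where the other 4 arrays read 8.67 to 8.82. The ETS factor gene Etv1 was placed in that list with its value known and its place there is the least sure. It read 5.29, 5.24 and 5.71 on exposed and 4.58 and 3.72 on control arrays, a difference of 1.27 (0.57 to 1.96; limma adjusted p 0.93). Relatives of the members by family, 19 measured, were 11 higher and 8 lower with a median of 0.014. Their widest were the dim Klf14 (-0.31, mean level 2.48) and Klf8 (0.30, mean level 2.10).

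Target genes of PPARgamma and C/EBPalpha were not called either. Of 28 measured targets 9 were higher and 19 lower in mean, with a median of -0.047, and the interval excluded a 2-fold difference for 27, a share near the 92.9% of all probe sets. That median was -0.011 without exposed array 3 and -0.082 without exposed array 2. The medians and counts of all these lists stand beside a median of -0.0004, with 50.1% lower, over all probe sets. Fabp4 differed by 0.00 (-0.29 to 0.29) and Adipoq by -0.01 (-0.37 to 0.34). Retn, the resistin gene, read 8.82, 9.10 and 9.22 on exposed and 8.49 and 8.68 on control arrays. The groups did not overlap, and its difference of 0.46 (0.06 to 0.86) did not pass (limma adjusted p 0.93). Aqp7, the glycerol channel gene, differed by -0.40 (-1.14 to 0.33), with exposed arrays 1 and 3 at 6.44 and 6.19 and the other 3 at 6.82 to 7.17.

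**Figure D5:**
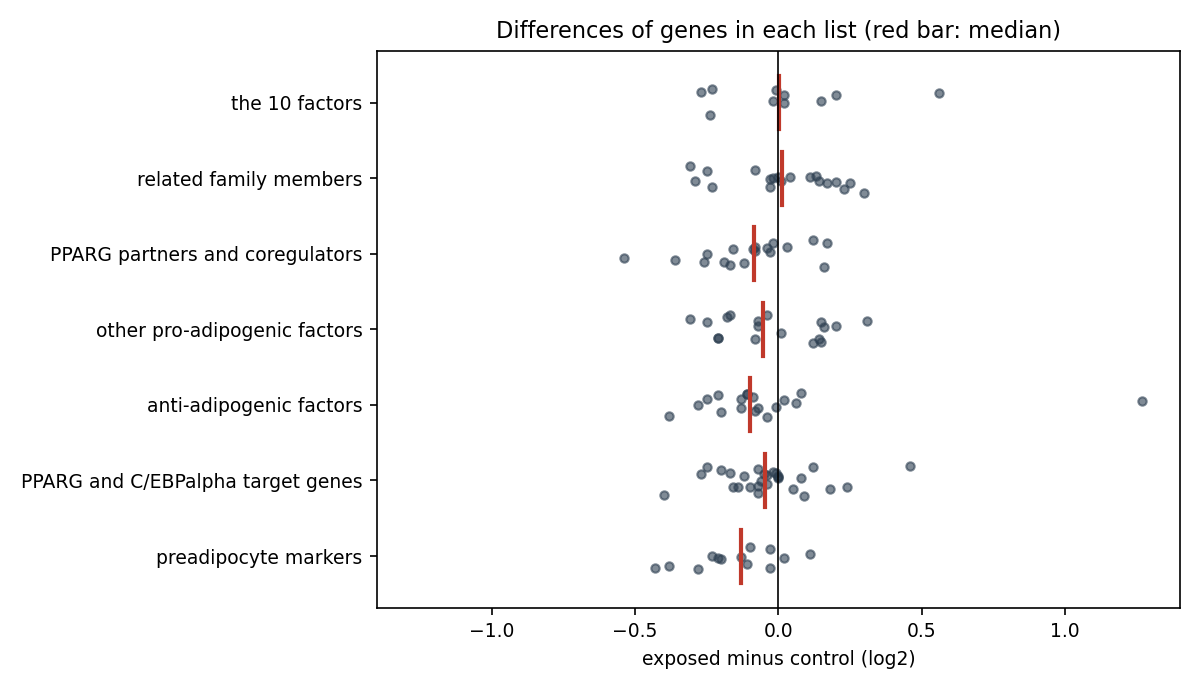
Difference between exposed and control arrays (x axis, log2 units) for each measured gene (points) of the 10 factors and of 6 lists of related genes, with a red bar at the list median. List medians lie between -0.13 and 0.014, and the single point beyond 1 is Etv1 at 1.27.

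Of the 13 preadipocyte markers 11 were lower in mean on exposed arrays, where 50.1% of all probe sets were lower, with a median of -0.13. By limma 0 of them were called and 0 had an unadjusted p under 0.05. As a yardstick, the 19 genes of unrelated tissues were 12 higher and 7 lower in mean, with a median of 0.16. Exposed array 1 read lowest for 7 of the 13, and without it 10 were lower, with a median of -0.15. Dlk1 differed by -0.28 (-0.60 to 0.05; limma adjusted p 0.93) and did not overlap between groups. The widest of the list were Cd24a at -0.43 and Pdgfrl, a receptor-like gene, at -0.38. The mean level of the list was 7.47, 7.55 and 7.62 on exposed arrays 1 to 3 and 7.70 and 7.69 on control arrays. Ebf2, itself a gene of committed precursors, also lay lower on the exposed arrays, and the part of precursor cells in its value was not tested.

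Marker lists of other cells had mean levels of at most 3.90 on any array, where the genes of unrelated tissues had 3.76 to 3.92. B and plasma cell markers (9 measured) had mean levels of 3.30 to 3.61 over the 5 arrays, with a highest member, Sdc1, at 7.49. On exposed arrays 6 of them were higher and 3 lower in mean, with a median difference of 0.05. The widest differences were those of Cd79b and Mzb1, each -0.37. Macrophage markers (9 measured) had mean levels of 3.67 to 3.90, with a highest member, Cd14, at 6.63. In mean 3 were higher and 6 lower, with a median difference of -0.07, and the widest were C1qa at -0.51 and C1qb at 0.37. Endothelial markers (6 measured) had mean levels of 2.83 to 2.97. In mean 3 were higher and 3 lower, with a median difference of -0.015, and the widest were Tie1 at -0.54 and Pecam1 at -0.32. Within the 19 genes of unrelated tissues the widest differences were 0.77 (the corneal keratin gene Krt12) and -0.67 (Alb), wider than the 0.56 of Klf5. For both genes the groups overlapped, with intervals from -0.16 to 1.69 (Krt12) and -1.46 to 0.12 (Alb). Klf5 had no overlap and an interval from 0.10 to 1.02. The residual SDs of Krt12 and Alb lay at the 99.0 and 96.7 percentiles of all probe sets, that of Klf5 at the 62.5 percentile. Krt12 and Alb lay at mean levels of 5.50 and 3.67, and Klf5 at 5.84.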

How the data were processed

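Affymetrix Clariom S mouse arrays gave 1 log2 value per probe set and array, used here as the authors deposited them. They come from RMA in Partek, per the submitters' processing notes. No version and no annotation build is given in the sources used here. RMA corrects background, equalises the distributions of probe signals and summarises the probes of a set. Array medians lay between 4.80 and 4.88, and the values between 1.2 and 13.2; the number of arrays limits the precision.

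Gene symbols came from GEO's platform annotation (19572 probe sets with 1 symbol, 0 with several, 2634 with none). Of 182 listed genes 165 were measured, and 17 were not found and are not analysed here.

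The test of 3 exposed against 2 control arrays used limma (version 3.58.1, under R version 4.3.3; lmFit, eBayes, group as the term, two-sided, all probe sets, Benjamini-Hochberg over all of them, called at an adjusted p under 0.05; 3 residual and 3.17 prior degrees of freedom). The script was tested on simulated data. Named genes were all members, the 2 widest differences of each list and fixed checks of cell type (Adipoq, Fabp4, Dlk1, Ptprc, Pecam1). Ins2, Slc2a4, Rxra, Rxrb, Rxrg, Sdc1, Cd14, Dpp4, Cd34, Gata2, Vim, Lep and Ucp1 were named besides, after their values were seen. The members and lists were chosen with earlier results of these data known. Promoter windows are RefSeq's, build GRCm38.p6.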

Additional observations from a re-analysis of the deposited data

How the results depend on the processing

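The 14 alternative settings changed the variance model, the array weights, the scaling, the filter on probe sets or the pairing, or left out 1 array. The changes of variance model and of filter leave every difference as it is. The replicate number as a block gives the same differences as leaving out exposed array 3. Neighbouring title numbers give those without exposed array 1. The settings are therefore not 14 separate checks of a sign, and some turned signs are counted under 2 settings. In all 140 member differences so obtained 0 were called by limma, the lowest adjusted p being 0.772 (Klf5 without control array 1), and 6 of 10 members kept their sign throughout. The other 4, all within 0.05 of 0, turned in 12 cases: quantile normalization gave Cebpd 0.024 and Cebpg 0.011; neighbouring title numbers as a block gave Pparg -0.0085, Cebpg 0.027 and Klf4 -0.0099. With 1 array left out, Pparg ran from -0.0085 to 0.039, Cebpd from -0.074 to 0.049, Cebpg from -0.079 to 0.038 and Klf4 from -0.019 to 0.056. The members' median difference ran from -0.035 to 0.037 when 1 array was left out, lowest without control array 2. An unadjusted p under 0.05 gave 1 member, Klf5, and 0 without moderation of the variance; without control array 2 the 1 member was Ebf2 in place of Klf5. Genes called in the other lists numbered 0 in all settings. The choice between several probe sets of a gene was not run, since every member has 1. The labels do not say that same-numbered exposed and control arrays share more than a number. Their deviations from the group means had correlations of -0.014 and -0.032. The deviations of the 2 control arrays mirror each other, so these are not independent checks of a pairing. With the replicate number as a block, which leaves exposed array 3 without a partner, Klf5 differed by 0.58 (-0.071 to 1.22), Cebpa by -0.11 and Cebpb by 0.022, and 0 members were called; 789 probe sets had an unadjusted p under 0.05, against 776 without the block.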
